A study of Homo sapiens with 4 samples.

Results

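The regions described here are 8103 ChIP-seq peaks of the transcription factor USF1 that lay inside protein-coding genes and were called in list 2, 1 of the 2 peak lists of the study, without a counterpart in list 1. A list 2 peak was taken when no list 1 peak overlapped it by 1 bp or more, when it lay on chromosomes 1 to 22 or X, and when its centre was inside a protein-coding gene and over 1 kb from every protein-coding gene end in RefSeq on GRCh38.p14. These peaks made up 29.7% of the 27325 peaks of list 2, out of 41625 peaks in both lists. They made up 85.4% of the 9491 gene-body peaks of list 2, where 80.4% of all list 2 peaks lacked a list 1 overlap. The peaks were chosen by the calls of the peak caller in both lists, so the folds, tag counts, scores and false discovery rates (FDR) of these peaks are given as a description and are the authors' own values.

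Binding was measured in Huh7 cells, a human line from a hepatocellular carcinoma in which USF1 was overexpressed, by precipitation with an anti-FLAG antibody. The study set out to find genes that USF1 acts on in this cancer. The series used here holds 2 immunoprecipitated (IP) libraries and 2 input chromatin libraries, all from Huh7 cells. List 2 set IP 2 against input 2 and list 1 set IP 1 against input 1. The labels do not say how the tagged protein was delivered or whether the numbered libraries came from separate cultures, and libraries of IgG precipitations or of cells without the tag were not analysed here. After removal of duplicate tags, IP 2 kept 43942638 tags and input 2 kept 43562726, and IP 1 kept 47165647 and input 1 kept 46345938. List 1 held 14300 peaks.

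USF1 is a basic helix-loop-helix leucine zipper protein that binds DNA as a dimer at the E-box, whose core is CACGTG, and in liver it is known for the control of genes of lipid and glucose metabolism. Its known sites lie mostly close to transcription starts. The body of a gene can hold further starts, from which shorter transcripts of the same gene or transcripts of non-coding genes begin, besides introns with enhancers.

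Sequence was at hand only for windows around annotated starts, so the sequences shown are those of starts that lay inside these peaks. They are the windows of the 6 peaks with the highest fold among those with CACGTG before the start, and of the 2 highest without CACGTG, chosen after the values were seen. Each line gives the 250 bases before the start, 5′ to 3′ on the strand of the transcript, from RefSeq on GRCh38.p14, with CACGTG in capitals. The windows are chr6:158559841-158560090 (plus strand) for TMEM181, a membrane protein gene, and chr1:15949681-15949930 (plus strand) for LOC124903855, a lncRNA gene inside ZBTB17. PDK2, a kinase that restrains pyruvate dehydrogenase, is shown from chr17:50095101-50095350 (plus strand), and ARHGAP45, a GTPase-activating protein gene, from chr19:1066917-1067166 (plus strand). MYO18A, an unconventional myosin gene, is shown from chr17:29176774-29177023 (minus strand), and PLAGL1, an imprinted zinc finger gene, from chr6:144008260-144008509 (minus strand). The windows without CACGTG are chr12:8697741-8697990 (plus strand) for RIMKLB, an N-acetylaspartylglutamate synthase gene, and chr4:148442415-148442664 (minus strand) for NR3C2, the mineralocorticoid receptor gene.
TMEM181: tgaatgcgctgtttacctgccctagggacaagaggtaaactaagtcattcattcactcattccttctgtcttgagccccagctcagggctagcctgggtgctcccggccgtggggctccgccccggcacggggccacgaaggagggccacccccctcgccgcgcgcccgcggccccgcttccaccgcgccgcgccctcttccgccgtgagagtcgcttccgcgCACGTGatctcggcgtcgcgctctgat
LOC124903855: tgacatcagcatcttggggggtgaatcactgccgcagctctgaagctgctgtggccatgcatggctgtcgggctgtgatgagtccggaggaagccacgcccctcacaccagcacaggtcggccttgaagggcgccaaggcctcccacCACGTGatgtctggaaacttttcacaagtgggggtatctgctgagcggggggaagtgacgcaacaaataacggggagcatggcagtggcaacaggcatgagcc
PDK2: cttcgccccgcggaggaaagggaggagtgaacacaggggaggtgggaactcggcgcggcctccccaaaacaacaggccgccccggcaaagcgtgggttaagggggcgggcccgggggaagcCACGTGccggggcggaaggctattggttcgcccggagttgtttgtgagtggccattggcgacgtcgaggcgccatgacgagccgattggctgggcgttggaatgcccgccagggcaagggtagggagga
ARHGAP45: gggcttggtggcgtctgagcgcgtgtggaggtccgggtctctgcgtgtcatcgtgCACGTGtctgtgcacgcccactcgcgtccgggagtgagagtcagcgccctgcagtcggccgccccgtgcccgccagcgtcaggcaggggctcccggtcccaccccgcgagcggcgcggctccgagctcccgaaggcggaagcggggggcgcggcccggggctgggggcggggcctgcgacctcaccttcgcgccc
MYO18A: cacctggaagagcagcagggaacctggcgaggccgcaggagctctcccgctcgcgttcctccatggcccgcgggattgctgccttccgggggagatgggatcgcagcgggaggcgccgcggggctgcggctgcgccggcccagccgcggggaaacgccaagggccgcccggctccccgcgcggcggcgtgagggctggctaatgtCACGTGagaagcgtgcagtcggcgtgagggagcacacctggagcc
PLAGL1: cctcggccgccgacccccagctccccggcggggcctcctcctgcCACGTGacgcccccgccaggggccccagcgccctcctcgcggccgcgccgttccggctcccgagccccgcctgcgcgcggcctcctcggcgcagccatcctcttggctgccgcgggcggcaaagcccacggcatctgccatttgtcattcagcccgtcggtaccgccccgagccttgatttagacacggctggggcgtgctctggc
RIMKLB: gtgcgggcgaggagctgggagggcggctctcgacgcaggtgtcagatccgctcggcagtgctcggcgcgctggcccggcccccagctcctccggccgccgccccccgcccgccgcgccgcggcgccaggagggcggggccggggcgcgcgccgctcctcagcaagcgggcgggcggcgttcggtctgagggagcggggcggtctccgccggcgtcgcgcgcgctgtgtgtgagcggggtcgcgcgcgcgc
NR3C2: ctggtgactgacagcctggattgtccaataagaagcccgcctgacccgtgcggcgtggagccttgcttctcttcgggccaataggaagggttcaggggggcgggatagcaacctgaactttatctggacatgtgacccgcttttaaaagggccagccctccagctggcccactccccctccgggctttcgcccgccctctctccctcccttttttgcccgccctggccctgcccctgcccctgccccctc

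In these windows the E-box began 27 bases before the start at TMEM181, 103 at LOC124903855, 129 at PDK2, 195 at ARHGAP45, 45 at MYO18A and 206 at PLAGL1. The middle of the E-box lay 2 bp from the peak summit at PLAGL1, 6 bp at PDK2, 16 bp at LOC124903855, 21 bp at MYO18A and 25 bp at TMEM181. At ARHGAP45 it lay 299 bp away, so 5 of the 6 E-boxes shown were close to the summit. The peak at TMEM181 held 55 tags at 10.76-fold over the tags that the caller expected, and the peak at PDK2 held 131 tags at 9.31-fold. The PDK2 start shown lay within 1 kb of the gene end, which the centre of the peak did not (1.03 kb). Without CACGTG in the window, the peak at RIMKLB held 62 tags at 11.33-fold and that at NR3C2 held 102 tags at 10.07-fold. The NR3C2 window does hold CATGTG, which is CACATG, another E-box form, on the other strand. The RIMKLB summit lay 765 bp from the start, outside the window, and the NR3C2 summit lay 185 bp from the start, inside it. High folds at internal starts were thus found with and without CACGTG in the window, and bases outside the windows were not searched.

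Starts of protein-coding genes other than the outer gene ends were near more of these peaks than the length of gene bodies gives. The centre of 410 of 7743 peaks (5.30%, 95% Wilson interval 4.82 to 5.82%) lay within 1 kb of such an internal start, and 0.792% of gene-body bases did, a ratio of 6.68. Chromosome 8 is left out of these counts because no start of it was in the table used. Within 250 bp the share was 3.16% (2.80 to 3.58%), against 0.204% of gene-body bases. The starts belonged to 400 genes. These intervals, like all below, cover counting error only, because peaks of 1 library are not replicates.

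Gene-body peaks that both lists shared were at internal starts more often. The share was 5.30% in peaks of list 2 only and 15.6% (13.8 to 17.7%) in shared gene-body peaks of list 2, a difference of -10.3 percentage points (95% Newcombe interval -12.4 to -8.39). Gene-body peaks of list 1 only had 2.32% (1.85 to 2.90%), which made the share in list 2 only higher by 2.98 points (2.22 to 3.68). The order was kept within a range of FDR: at an FDR of 5% or less the share was 12.5% (10.9 to 14.3%) in peaks of list 2 only and 21.1% (18.3 to 24.1%) in shared peaks, a difference of -8.57 points (-12.0 to -5.32). At an FDR over 5% it was 3.57% (3.14 to 4.06%) in peaks of list 2 only and 8.05% (6.07 to 10.6%) in shared peaks.

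**Figure D1:**
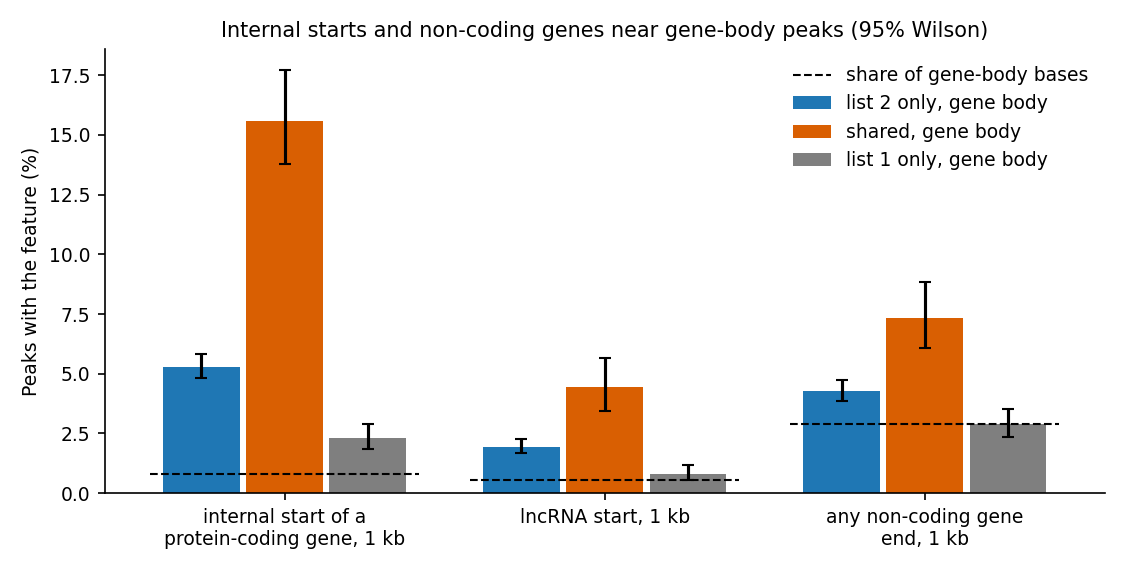
Share of gene-body peaks (%, bars with 95% Wilson intervals) within 1 kb of an internal start of a protein-coding gene, of a lncRNA start, and of an end of any non-coding gene, for peaks of list 2 only (blue), shared peaks (orange) and peaks of list 1 only (grey). Dashed lines give the share of gene-body bases with the same feature: at internal starts the blue bar stands at 5.30% over a line at 0.792%.

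The peaks at internal starts held more tags and were wider than the others, at a slightly lower fold. Their median was 66.5 tags, 1150 bp and 5.06-fold, against 43.0 tags, 813 bp and 5.31-fold in the remaining peaks. An FDR of 5% or less was reached by 187 of 410 (45.6%), against 17.9% of the remaining 7333. None of the 20 peaks with the highest fold lay within 1 kb of an internal start. By fold the internal starts were led by RIMKLB, TMEM181 and NR3C2, followed by PPM1A (9.56-fold), a phosphatase gene, CC2D2A (9.32-fold), which encodes a protein of the ciliary transition zone, PDK2, and MAT2B (9.21-fold), the regulatory subunit of methionine adenosyltransferase. RARA, a retinoic acid receptor gene, had 65 tags at 8.69-fold 33 bp from a start, and CDKN2C, an inhibitor of cyclin-dependent kinases, had 64 tags at 8.50-fold 203 bp from a start. These names were chosen for their fold after the values were seen.

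E-boxes were more frequent in the promoter windows inside these peaks than at gene-body starts without a peak, and less frequent than inside shared gene-body peaks. A window is the 300 bases from 250 before to 50 after a start, with 1 window taken for each peak that held a start. There were 434 windows in peaks of list 2 only, 352 of protein-coding and 82 of lncRNA genes. In 28 of them the start lay within 1 kb of a gene end although the centre of the peak did not, and without these 28, CACGTG was in 43 of 406 windows (10.6%). CACGTG, which reads the same on both strands, was in 44 of them (10.1%, 7.64 to 13.3%), against 54 of 219 windows in shared gene-body peaks (24.7%, 19.4 to 30.8%), a difference of -14.5 points (-21.1 to -8.38). It was in 301 of 6324 windows of gene-body starts with no peak of either list within 1 kb (4.76%, 4.26 to 5.31%), so the share in list 2 only was higher by 5.38 points (2.82 to 8.62). In peaks of list 1 only it was in 3 of 71 windows (4.23%, 1.45 to 11.7%), and the difference of 5.91 points had an interval from -1.97 to 10.1. Of all 34961 windows in the table, 7.27% held CACGTG.

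The longer form GTCACGTG, which contains CACGTG, was searched on both strands. It was in 2.53% (1.42 to 4.48%) of windows in peaks of list 2 only and in 17.8% (13.3 to 23.4%) of those in shared gene-body peaks, a difference of -15.3 points (-21.0 to -10.4). Starts without a peak had it in 0.585%, and all windows in 2.41%. At gene ends, peaks of list 2 only had CACGTG in 8.96% of windows and GTCACGTG in 2.57%, against 34.3% and 22.8% for shared gene-end peaks. At an FDR of 5% or less CACGTG was in 10.7% (7.16 to 15.6%) of windows in gene-body peaks of list 2 only and in 28.2% of those in shared ones, a difference of -17.5 points (-25.4 to -9.58). Above an FDR of 5% the shares were 9.65% and 11.1%, with an interval of the difference from -14.3 to 6.27 points.

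**Figure D2:**
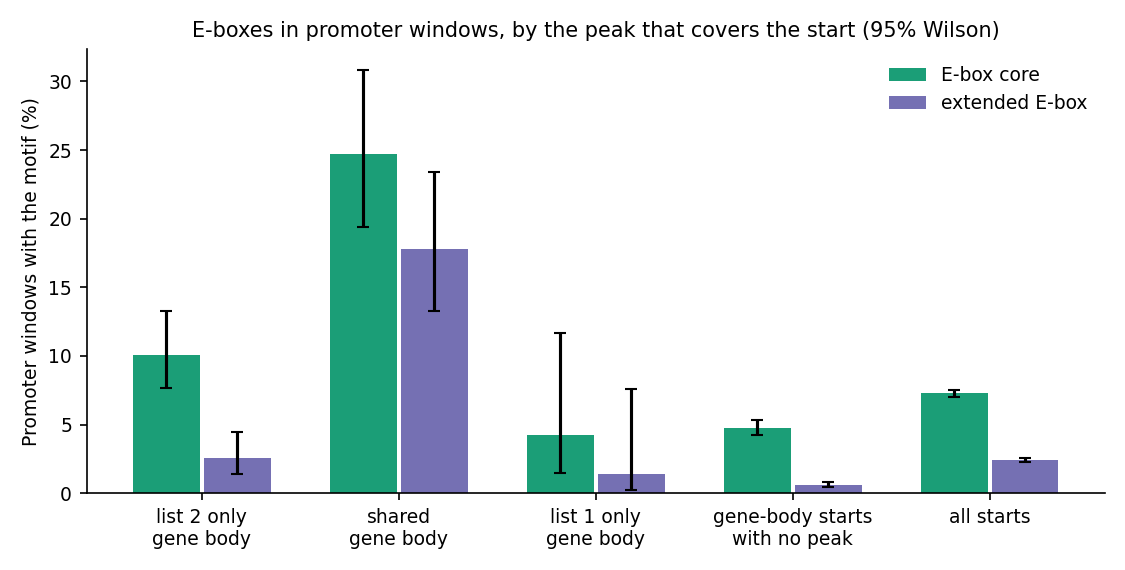
Share of promoter windows (%, bars with 95% Wilson intervals) with the E-box core and with the longer E-box, by the class of peak that covers the start, then for gene-body starts with no peak within 1 kb and for all starts. Windows in peaks of list 2 only had 10.1% and 2.53%, below shared gene-body peaks at 24.7% and 17.8%.

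Base composition differed between these groups of windows. The median GC content was 67.3% in peaks of list 2 only, against 68.0% in shared gene-body peaks, 62.0% in list 1 only and 51% at starts with no peak. GGGCGG, the GC-box bound by SP factors, was searched on both strands and was in 67.7% of windows in list 2 only, against 78.1% in shared peaks, 52.1% in list 1 only and 25.7% at starts with no peak. The part of base composition in the difference from starts without a peak was not tested. The other E-box form CACATG was in 9.68% of windows in list 2 only, against 14.4% at starts with no peak, a difference of -4.71 points (-7.31 to -1.46). The AP-1 motif TGANTCA was in 6.91% of windows in list 2 only, against 10.2% at starts with no peak. The forkhead motif TGTTTAC (2.76%) and the C/EBP motif TTGCNNAAT (1.15%), both bound by families of liver factors, were in few windows, against 4.44% and 3.04% at starts with no peak.

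Where a window held CACGTG, the nearest one lay a median of 49.0 bp from the summit, within 50 bp in 23 of 44 windows and within 100 bp in 28. The window was that of the start nearest the summit, so short distances were favoured by this choice. No background distance was computed. The peaks of these 44 windows had a median fold of 6.09 and 57.0 tags, and those of the 390 windows without CACGTG had 4.89 and 76.5 tags. An FDR of 5% or less was reached by 22 of the 44 peaks with CACGTG and 184 of the 390 without. The peaks with CACGTG thus had higher folds on fewer tags. Further E-boxes close to the summit were in windows of MSN (1 bp from the summit, 7.02-fold), which encodes moesin, a linker of actin to the membrane, of DENND2B (3 bp, 6.77-fold) and of RARA (6 bp, 8.69-fold), where the E-box lay after the start.

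Over all 8103 peaks the fold was modest and the FDR mostly above 5%. The fold had a median of 5.31, with quartiles of 4.42 and 6.38 and a range of 2.28 to 16.3. Peaks held a median of 44.0 tags (19 to 736) over a median length of 828 bp. The FDR, which the caller takes from peaks found with IP and input exchanged, had a median of 14.4%, and 1558 peaks (19.2%, 18.4 to 20.1%) were at 5% or less, against 30.8% of all list 2 peaks. Shared gene-body peaks of list 2 had a median fold of 7.06, 59.0 tags and 58.1% at an FDR of 5% or less. A fold of at least 8 was reached by 552 peaks of list 2 only (6.81%), against 36.5% of shared gene-body peaks. At gene ends, peaks of list 2 only reached an FDR of 5% or less in 45.9% of cases, and between genes in 18.6%. Of the 3300 gene-body peaks of list 1 only, 7 (0.212%) had such an FDR, and their median fold was 5.66. Their FDR had a median and both quartiles of 100%, so it cannot be set beside the FDR of list 2. A p of at most 1e-10 was reached by 11.5% of peaks of list 1 only and 13.5% of list 2 only. A fold of at least 8 was reached by 9.03% of list 1 only, against the 6.81% of list 2 only.

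**Figure D3:**
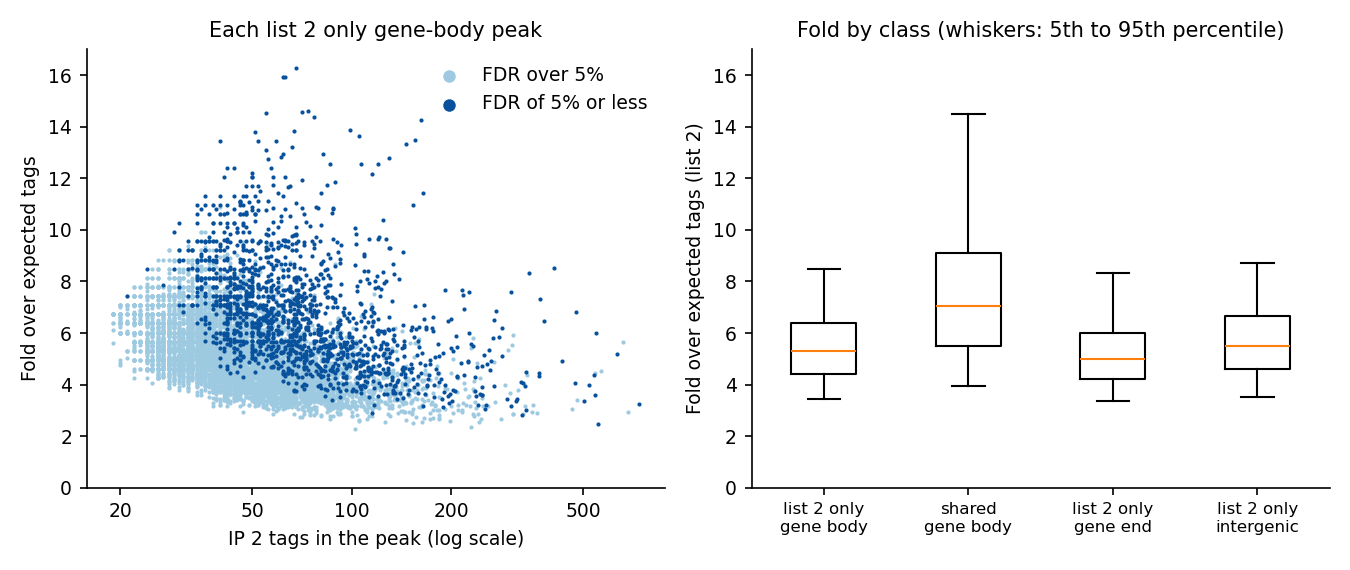
Left, fold over expected tags against the number of IP 2 tags (log axis) for each gene-body peak of list 2 only, dark where the FDR is 5% or less. Right, fold by class of list 2 peaks with median, quartiles (box) and 5th to 95th percentile (whiskers): the median is 5.31 for gene-body peaks of list 2 only and 7.06 for shared ones.

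Fold and tags ranked different peaks first. The 20 highest folds ran from 12.93 to 16.29 on 40 to 162 tags, all with an FDR of 0.61% or less, and none was among the 20 with the most tags. Sets of 20 out of 8103 peaks would rarely share a peak even if fold and tags were unrelated. MYRIP, which links RAB27A to myosin in secretory granule transport, had 68 tags at 16.29-fold at chr3:39829837-39830800. SYT1, the calcium sensor of synaptic vesicle release, had 63 tags at 15.94-fold at chr12:79181320-79182035, and PGM2L1, which makes glucose 1,6-bisphosphate, had 62 tags at 15.94-fold at chr11:74395069-74395812. The MYRIP peak lay 21.4 kb and the PGM2L1 peak 2.99 kb from the 5′ end of the gene, and the SYT1 peak 318 kb from it.

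Further hosts of the 20 highest folds are given with their known roles. MTTP, which loads lipid onto lipoproteins in liver, had a peak of 52 tags at 13.46-fold, 15345 bp from a gene end and 340992 bp from the nearest list 1 peak. ITIH2, a heavy chain of a plasma protease inhibitor made by liver, had 71 tags at 14.57-fold, and NUDT7, a coenzyme A diphosphatase of peroxisomes, had 67 tags at 13.83-fold. GRAMD1C, a sterol transfer protein, had 59 tags at 13.46-fold. Their FDRs were 0.29%, 0.25%, 0.15% and 0.11% in that order.

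GSG1L, an auxiliary subunit of AMPA receptors, had 162 tags at 14.24-fold, and CNTN5, a contactin of neurons, had 99 tags at 13.87-fold. ADAMTS2, a procollagen protease, had 82 tags at 12.93-fold. Other hosts were BANF2, PLCH1, SLC36A3, TMEM132B, SRGAP3, DCAF8L2, ZCCHC14 and ELMOD1, at 13.10-fold to 14.60-fold.

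The 5 peaks with the most tags were all on chromosome 5 and were 4673 to 6630 bp long. TRIO, a guanine nucleotide exchange factor, had 736 tags at 3.24-fold, ANXA2R had 683 tags at 2.95-fold, and CTNND2, a catenin of neurons, had 661 tags at 5.65-fold. A peak in PLEKHG4B had 633 tags at 5.19-fold, and ADAMTS12, a metalloprotease, had 567 tags at 4.54-fold. TRIO (0.23%) and PLEKHG4B (0.43%) had FDRs under 5%, unlike the other 3, at 18.15% to 23.74%. The highest tag counts thus came with folds at or below 5.65.

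Folds just inside and just outside the limits of the rule overlapped. The 13 peaks with a list 1 peak 1 to 100 bp away had folds from 3.59 to 6.14, and the 7 that a list 1 peak overlapped by 1 to 100 bp, which are not counted here, had 3.68 to 7.31. The 60 peaks centred up to 100 bp beyond 1 kb from a gene end had folds from 3.29 to 9.31, and the 84 gene-end peaks of list 2 only centred up to 100 bp short of it had 2.75 to 14.17. Just past the caller's own p cutoff, 430 peaks with a score under 51 had a median fold of 4.95 and a median FDR of 25.1%.

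The nearest list 1 peak lay a median of 69669 bp away, within 1 kb for 144 peaks (1.78%) and over 100 kb away for 3060 (37.8%). The median was 62758 bp for gene-end peaks of list 2 only and 63063 bp for those between genes, with 2.06% and 1.82% within 1 kb. Among the highest folds, SYT1 had a list 1 peak 1758 bp away, and for GSG1L the nearest was 507320 bp away. No value of IP 1 at a place without a list 1 peak was used, so a weak signal and none in IP 1 cannot be told apart.

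Within their host genes the peaks were spread almost evenly, with slightly more toward the 5′ end. For the 6557 peaks with a single host of known strand, the median position was 47.6% of the way along the gene, 68.7 kb from its 5′ end. The last 10% of the gene held 8.69% of peaks of list 2 only. The first 10% held 10.8% (10.0 to 11.5%) of peaks of list 2 only and 13.4% (11.6 to 15.5%) of shared gene-body peaks, a difference of -2.66 points (-4.89 to -0.633), and 8.87% in list 1 only. Within 10 kb of a gene end lay 24.8% (23.8 to 25.7%) of peaks of list 2 only and 26.4% of shared gene-body peaks, with an interval of the difference from -4.23 to 0.773 points. List 1 only had 15.9%, and 21.4% of gene-body bases lay that close. The nearest other peak of list 2 only was a median of 47342 bp away, and 1460 peaks (18.0%) had one within 10 kb.

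The peaks lay in 4299 of 19974 protein-coding genes (21.5%), and those with an FDR of 5% or less in 1307 (6.54%). Of the 4299 genes, 2663 held 1 peak, 849 held 2 and 787 held 3 or more. In length the hosts had a median of 92.9 kb, against 24.2 kb for all genes. The share of genes with such a peak was 3.08% under 10 kb, 11.5% from 10 to 30 kb, 26.4% from 30 to 100 kb, 53.8% from 100 to 300 kb and 86.3% from 300 kb. Per Mb of gene body the numbers were 10.9, 7.75, 6.54, 6.14 and 6.71 peaks in the same order, so long genes had more peaks without having more per Mb.

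**Figure D4:**
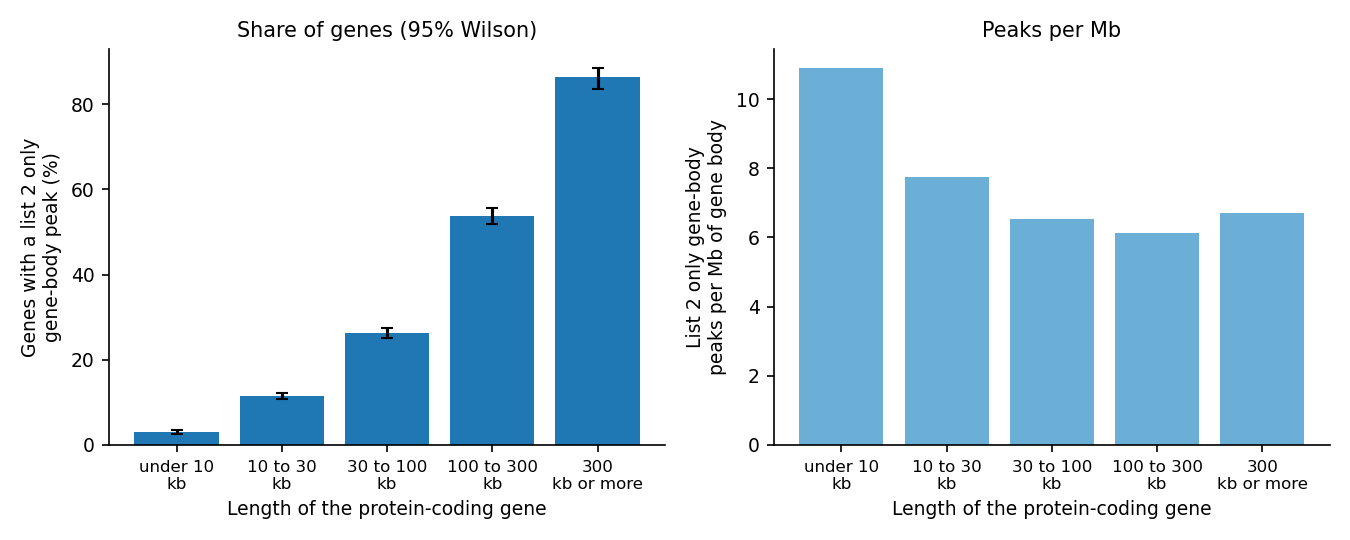
Left, share of protein-coding genes (%, 95% Wilson intervals) with a gene-body peak of list 2 only, by gene length. Right, number of these peaks per Mb of gene body in the same length classes: the share goes up with length, to 86.3% from 300 kb, and the number per Mb stays between 6.14 and 10.9.

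The genes with the most peaks were very long. RBFOX1, a splicing regulator of 2474 kb, held 39 peaks with folds from 3.24 to 10.8, of which 13 had an FDR of 5% or less. DLG2, a scaffold of synapses, held 30, DPP10, a partner of potassium channels, and PTPRD, a receptor phosphatase, 28 each, and DAB1, an adaptor of reelin signalling, 24. CDH4, a cadherin, and CSMD1 held 22 each, and TMEM132D 19. Peaks at an FDR of 5% or less numbered 8 in DLG2, 2 in DPP10, 4 in PTPRD and 1 in DAB1. They numbered 10 in CDH4, 1 in CSMD1 and 6 in TMEM132D. Of all gene-body peaks of list 2 only, 19.2% had such an FDR. Per Mb, CDH4 had 32.0 peaks and TMEM132D 22.8, against 10.7 in CSMD1 and 6.65 in gene bodies as a whole. DLG2 held 30 peaks of list 2 only and 34 of list 1 only, and PTPRD 28 and 56. RBFOX1 held 39 of list 2 only and 5 of list 1 only, and CDH4 22 and 2. Gene bodies as a whole held 8103 of list 2 only and 3300 of list 1 only. On chromosome 16, with RBFOX1, there were 347 and 59, and on chromosome 20, with CDH4, 243 and 36. Chromosome 11, with DLG2, had 473 and 308, and chromosome 9, with PTPRD, 354 and 147.

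Of the 4299 host genes, 2491 (57.9%) had no list 1 peak in the gene or within 1 kb. The other 1808 (42.1%) had one, against 25.9% of all genes. With genes of the same length compared, the shares were 17.8% of hosts and 13.0% of all genes under 10 kb, and 20.6% and 21.3% from 10 to 30 kb. They were 31.0% of hosts and 28.6% of all genes from 30 to 100 kb, 50.8% and 44.9% from 100 to 300 kb, and 74.6% and 72.0% from 300 kb. The share of hosts was higher in 4 of these 5 length classes. All genes of a class include its hosts, 665 of 771 from 300 kb, so these differences are narrower than those from genes without such a peak. A shared gene-end peak was found at 444 hosts (10.3%), against 11.5% of all genes. USF1, its paralogue USF2 and MYC, another E-box factor, held no gene-body peak of list 2 only, and no peak of either list was counted in these 3 genes or within 1 kb.

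Gene lists are given in both length classes, because 61.2% of genes of 100 kb or more held a gene-body peak of list 2 only and 13.5% of shorter genes did. The 12 lists held 454 genes, of which 196 had such a peak (43.2%, against 21.5% of all genes). These 2 shares are not matched for length, and the lists include the one chosen for very long genes, with 30 of 30. Of genes for lipid and glucose metabolism, 19 of 48 did, with 8 of 10 from 100 kb (80.0%) and 11 of 38 below (28.9%). MTTP led this list, followed by INSR, the insulin receptor gene (78 tags, 9.71-fold), PFKFB3, a regulator of glycolysis (54 tags, 7.79-fold), and ACSL1, a fatty acyl-CoA synthetase gene (32 tags, 6.73-fold at an FDR of 14.95%). The ACSL1 peak lay 135 bp from an internal start. In 7 of the 19 genes a peak had an FDR of 5% or less, against 1307 of all 4299 host genes.

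Lysosome and autophagy genes, for which the shared gene-end peaks of this series are numerous (25 of 49), held gene-body peaks of list 2 only in 11 of 49 cases, with 4 of 6 from 100 kb (66.7%) and 7 of 43 below (16.3%). CTSA, a lysosomal carboxypeptidase gene, had 68 tags at 9.23-fold, with a list 1 peak 1119 bp away. A peak where NPC1, a lysosomal cholesterol exporter, overlaps RMC1 had 53 tags at 6.02-fold, SQSTM1, an autophagy receptor, had 57 tags at 5.81-fold with a list 1 peak 398 bp away, and ATG2A, a lipid transfer protein of autophagy, had 101 tags at 5.61-fold.

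Of genes of hepatocyte factors and products, 4 of 35 held these peaks (11.4%), against 21.5% of all genes. By length these were 2 of 3 from 100 kb (66.7%) and 2 of 32 below (6.25%). None of the 35 held a shared gene-body peak, where 5.44% of all genes and none of 20 immune cell markers did. The 4 with a peak of list 2 only were NR5A2, a nuclear receptor of bile acid metabolism (34 tags, 7.26-fold), F9, coagulation factor IX (25 tags, 7.08-fold), TF, transferrin (43 tags, 6.75-fold), and the complement gene C3 (60 tags, 3.06-fold). TF had an FDR of 2.48% and the other 3 were at 9.04% to 22.96%. Immune cell markers, included as genes of other cell types, had 2 of 20, ITGAM (5.31-fold) and CD2 (5.08-fold), with 0 of 1 from 100 kb and 2 of 19 below (10.5%).

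Transcription factors of the nuclear receptor, TEAD, RUNX and NFI families had 25 of 40, with 17 of 21 from 100 kb (81.0%) and 8 of 19 below (42.1%). NR3C2 and RARA led at internal starts, followed by NFIA (58 tags, 8.57-fold) and ESRRG, an estrogen-related receptor gene (29 tags, 8.50-fold). This list also held 12 genes of 40 with a shared gene-body peak. Of all genes 5.44% held one, with 12.9% of those from 100 to 300 kb and 37.7% from 300 kb. The 12 genes were not split by length. Chromatin regulators had 22 of 40, with KDM4B, a histone demethylase gene (68 tags, 9.21-fold), SMARCA2, an ATPase of the SWI/SNF complex (7.86-fold), HDAC9, a histone deacetylase gene (7.60-fold), and CHD2, a chromatin remodeller (7.21-fold). By length these were 17 of 27 chromatin regulators from 100 kb (63.0%) and 5 of 13 below (38.5%).

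Actin, adhesion and guanine exchange genes had 26 of 42, with 23 of 31 from 100 kb (74.2%) and 3 of 11 below (27.3%). TNS1, which encodes tensin of focal adhesions, had 53 tags at 11.50-fold, DIAPH2, a formin, and AFDN, afadin of cell junctions, 7.44-fold each, and ARHGAP26, a GTPase-activating protein, 7.33-fold. Solute carriers and transporters had 20 of 38, with 14 of 20 from 100 kb (70.0%) and 6 of 18 below (33.3%), among them SLC8A1, a sodium-calcium exchanger (60 tags, 9.31-fold), ABCC4, an efflux pump (64 tags, 8.45-fold), and SLC7A5, a transporter of large neutral amino acids (119 tags, 8.21-fold).

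Growth factor and TGF-beta signalling genes had 14 of 42, with 8 of 19 from 100 kb (42.1%) and 6 of 23 below (26.1%). Among its highest folds were the MET receptor gene (6.39-fold), IGF1R, a receptor of insulin-like growth factors (6.33-fold), and PDGFRA (5.67-fold), and of these IGF1R, with 143 tags, had an FDR under 5%, at 3.35%. Ubiquitin ligases and deubiquitinases had 11 of 30, with 9 of 22 from 100 kb (40.9%) and 2 of 8 below, led by NEDD4 (6.88-fold), HUWE1 (6.19-fold, 14 bp from an internal start), FBXL7 (6.06-fold) and HERC1 (5.71-fold). RAB, ARF and vesicle trafficking genes had 12 of 40, with 9 of 15 from 100 kb and 3 of 25 below, led by RAB38, a RAB of melanosomes (56 tags, 11.13-fold), TBC1D5 (8.52-fold), RAB31 (7.79-fold) and VPS53 (6.38-fold). The list of common fragile sites and very long genes, all of 100 kb or more, had 30 of 30 with 364 peaks, led by SDK1 (120 tags, 12.56-fold), CNTNAP2 (12.40-fold) and RBFOX1 (10.81-fold). Genes of this list were chosen for length, with a median of 1420 kb, and 86.3% of all genes from 300 kb held such a peak.

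Non-coding genes were near a small part of the peaks. Within 1 kb of an end of a non-coding gene lay 347 peaks (4.28%, 3.86 to 4.75%), against 7.35% of shared gene-body peaks, 2.88% of list 1 only and 2.90% of gene-body bases. The difference from shared peaks was -3.07 points (-4.62 to -1.73). The nearest of these genes was a lncRNA for 255 peaks and a miRNA for 28. At lncRNA starts lay 1.95% of peaks of list 2 only and 4.43% of shared ones, a difference of -2.48 points (-3.75 to -1.44).

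By fold, this group was led by a further peak in PDK2, 364 bp from an end of PDK2-AS1, with 153 tags at 10.97-fold. A peak in AGBL1 next to LOC105370954 had 40 tags at 10.63-fold, and one in NALF1, 117 bp from MIR1267, had 47 tags at 10.27-fold. The whole hairpin of 20 miRNA genes lay inside 17 of the peaks, 5 of them at an FDR of 5% or less, such as MIR3190 and MIR3191 in BBC3 (226 tags, 7.58-fold). These names too were chosen after the values were seen.

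The number of peaks per Mb of gene body differed among chromosomes. It was 6.65 over all and ran from 2.98 on chromosome 4 to 9.49 on chromosome 19, with 9.35 on chromosome 16 and 9.17 on chromosome 20. Shared gene-body peaks ran from 0.395 on chromosome 4 to 3.03 on chromosome 19. Peaks of list 1 only were highest on chromosome 5, at 7.53 per Mb, where list 2 only had 8.61, and they had 1.15 on chromosome 19. The number of DNA copies of each chromosome in these cells was not measured here, so its part in these differences was not tested.

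**Figure D5:**
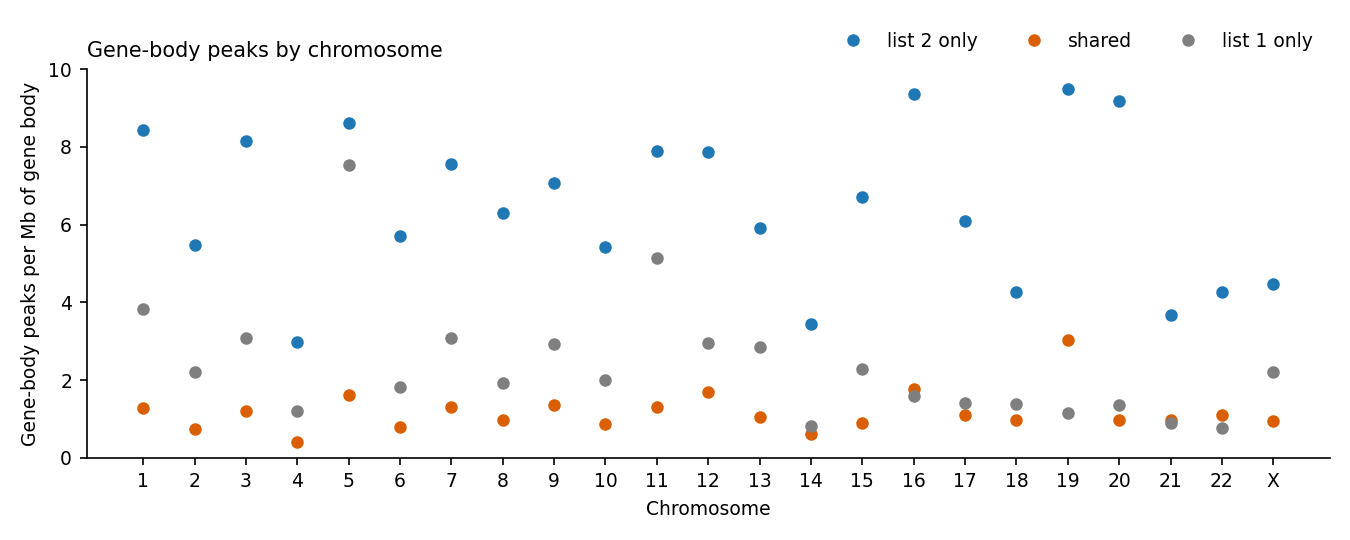
Gene-body peaks per Mb of gene body by chromosome for peaks of list 2 only (blue), shared peaks (orange) and peaks of list 1 only (grey). List 2 only ran from 2.98 on chromosome 4 to 9.49 on chromosome 19, and list 1 only was highest on chromosome 5, at 7.53.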

How the data were processed

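The data were 2 peak lists of USF1 ChIP-seq in Huh7 cells, made from 2 IP and 2 input libraries. Per the file headers, the authors called peaks with MACS 1.4.2, each IP against the input of the same number without pooling, at a p of 1e-05, with at most 1 tag per position and with the deeper library of a pair scaled down. Bowtie2, deepTools, HOMER and GRCh38 appear per the submitters' processing notes, without roles. Each deposited peak carries the authors' count of IP tags, a score of minus 10 times log10 p, a fold (the ratio of IP tags to expected tags) and an FDR in percent. The deposited count is not scaled to depth.

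Peaks were classed by their centre with RefSeq gene positions on GRCh38.p14. Strand, internal starts and promoter sequences came from 34961 RefSeq windows on GRCh38.p14, which gave a strand for 15812 of 19974 protein-coding genes and hold none on chromosome 8. Exon positions were not used here. Shares have Wilson and differences Newcombe intervals at 95% (Python 3.11.15, numpy 2.4.6, pandas 2.3.3, matplotlib 3.10.9), checked on simulated data. Peaks of 1 library are not replicates, so no p-value is given.

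The peaks, the gene lists and the rule for names were chosen with earlier results of these data known. The rule names the 20 highest folds, the 5 highest tag counts, the 8 genes with most peaks, up to 4 genes per list by fold, and USF1, USF2 and MYC; internal starts, promoter windows and non-coding neighbours were added after the data were seen. Planned sequences of the 20 highest folds were replaced by windows at internal starts, since genome sequence was not used here. Some genes that the rule names are not reported here. Alternatives were stricter fold, p and FDR thresholds, other overlap and distance rules, summits for centres, list 1 left out of the choice of peaks, and chromosome 5 left out.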

Additional observations from a re-analysis of the deposited data

How the results depend on the processing

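With a fold of at least 8, a p of at most 1e-10 and an FDR of at most 5%, in that order, there were 552, 1091 and 1558 peaks in 486, 977 and 1307 genes, of which 31, 53 and 65 were on the gene lists. Median folds became 8.91, 6.78 and 6.46. In the same order, 56.2%, 46.7% and 46.3% of hosts had a list 1 peak, 21.4%, 32.5% and 31.6% of peaks lay within 10 kb of a coding gene end, 3.26%, 7.15% and 6.16% within 1 kb of a non-coding gene end, and 4.35%, 14.5% and 12.5% within 1 kb of an internal start. The share at an FDR of 5% or less was 72.3% under the fold threshold and 100% under the p threshold. CACGTG was in 29.2% (14.9 to 49.2%) of the 24 windows left under the fold threshold. It was in 9.88% of 172 windows under the p threshold and 10.7% of 206 under the FDR threshold, against 10.1% of 434 without a stricter threshold. Over 5 kb from every gene end, the median fold was 5.38, and the shares were 46.2% of hosts with a list 1 peak, 18.0% at an FDR of 5% or less, 12.5% within 10 kb of a gene end, 3.59% at non-coding gene ends and 3.61% at internal starts; a distance rule by itself removes peaks near ends. Without replicate 1 (9491 gene-body peaks, shared ones included), the median fold was 5.48, and the shares were 24.9% at an FDR of 5% or less, 47.3% of hosts with a list 1 peak, 6.81% at internal starts and 15.0% of windows with CACGTG. This setting only adds the 1388 shared gene-body peaks to those of list 2 only. List 1 was still used for the share of hosts, and the added peaks overlap list 1 peaks by definition. The other overlap rules, summits for centres and chromosome 5 left out gave values within 1.5 times the count or within the counting interval. Outside the stricter thresholds, none of 72 counts per gene list moved by over 1.5 times; under them 35 of 36 did. The causes were not tested.

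Without replicate 2 there is no value to give: the peaks are those of list 2. CACGTG around summits, planned with windows of several widths, was not run because genome sequence was not used here. No paired analysis was possible because the lists hold no input tags per peak and same-numbered IP and input libraries were joined when peaks were called. Depth was not varied here: the caller kept 43942638 tags of IP 2 and 47165647 of IP 1, and in IP 1 a peak just under the caller's threshold and no signal cannot be told apart.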
